A study of Mus musculus with 20 samples.

Results

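The 73 genes described here encode subunits of heterotrimeric G proteins, the RGS proteins that switch them off, kinases and an arrestin that act on their receptors, and enzymes that make, degrade or respond to cyclic AMP and cyclic GMP. They were chosen by gene symbol, from the platform annotation: symbols that begin with Gna, Gnb, Gng, Rgs, Adcy, Pde, Grk, Arr, Guca, Gucy, Prka or Prkg and match the full pattern of those families. Of the 82 genes that matched, 9 were kept out (Gnat1, Gnat2, Gnb1, Gng13, Pde6a, Pde6b, Pde6g, Guca1a and Gucy2e), so the best known rod and cone subunits are not among the 73. The array named 9230 genes in all. The rule uses symbols and no measured value. The pattern also caught 7 genes whose products work elsewhere: the neuropeptide PACAP and its receptor (Adcyap1, Adcyap1r1), the gut peptides guanylin and uroguanylin (Guca2a, Guca2b) with their receptor cyclase (Gucy2c), a WD-repeat protein (Gnb1l) and a subunit of the AMP-activated kinase (Prkag1).

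Total RNA came from 1 pool of adult C57/B6 mouse retina and from 1 pool of Swiss-Webster mouse cortex at postnatal day 1, and each pool was labelled with biotin and hybridised to 1-colour CodeLink arrays. A first site and a second one, called site 2, each ran 5 arrays per pool, for 4 groups and 20 arrays. Tissue, strain and age all differ between the pools and cannot be told apart. Within a group the 5 arrays repeat the measurement of a single pool (technical replicates), so every p-value here measures the spread between arrays and says nothing about the spread between animals. In bulk RNA of this kind, fewer cells of a type and less RNA per cell cannot be told apart either.

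Intensities are on a linear array scale without a physical unit, on which 1 lies close to the median probe. Of all values, 25% lay below 0.194 and 5% below 0.0445. A gene was called different when limma's p-value, adjusted over the 10339 tested probes by the Benjamini-Hochberg method, fell below 0.05 with a difference of 2-fold or more. Of the 73 genes, 70 had enough values for the test; Pde6c, Adcy9 and Prkag1 did not, because of blank readings at site 2. The within-group SD of log2 intensity had a median between 0.14 and 0.21 over the 70 tested genes in the 4 groups.

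The retina arrays carried all 6 measured rod and cone markers at higher readings than the cortex arrays at both sites, and the cortex arrays carried all 4 measured cortical neuron markers at higher readings. On the cortex arrays the summed rod and cone marker reading spanned 3.30 to 11.4 for the first site and 2.12 to 3.17 for site 2, against 309 to 415 and 481 to 548 on the retina arrays. In the cortex pool, 3 of 7 markers of thalamus and midline and 2 of 4 pituitary markers were also called higher, at each site. Replicate 5 of cortex at site 2 stood apart: for 84.8% of the 66 genes read on all 5 arrays of that group it gave the lowest value, and its median distance from its group was 0.393 on the log2 scale, against 0.0855 to 0.205 on the other 19 arrays. Among all tested probes it was the lowest for 71.4%. Without that array, 69 of the genes could be tested, and the counts called higher in retina were 11 at the first site and 8 at site 2.

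A G protein consists of an alpha subunit that binds GTP and a beta-gamma pair. An activated receptor loads the alpha subunit with GTP, both parts of the complex then act on cyclases, phosphodiesterases, phospholipases or channels, and RGS proteins end the signal by speeding GTP hydrolysis. In photoreceptors the chain runs through transducin to the cGMP phosphodiesterase, and the complex of Rgs9 with Gnb5 shuts transducin off. In cortical neurons the same families carry dopamine, noradrenaline, acetylcholine and glutamate signals to cyclic AMP and protein kinase A.

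At the first site 28 of the 70 tested genes were called, 10 of them higher in retina and 18 higher in cortex, which is 40% of the genes against 24.9% of all tested probes (11.9% higher in retina and 13.0% higher in cortex). At site 2, 29 were called, 9 higher in retina and 20 higher in cortex, against 24.6% of all tested probes (11.1% and 13.5%). Both sites called the same direction for 25 genes, 9 towards retina and 16 towards cortex, against 19.8% of all tested probes (9.31% and 10.5%). No gene was called in opposite directions by limma at the 2 sites, and 62 of 70 had the same sign of difference at both. The median difference was -0.23 at the first site and -0.21 at site 2 on the log2 scale, against -0.04 and -0.05 over all tested probes. The median size of the difference regardless of sign was 0.80 and 0.81, against 0.50 and 0.53.

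The 9 genes higher in retina at both sites were 2 beta subunits (Gnb3, Gnb5), 2 RGS genes (Rgs9, Rgs16), 1 alpha subunit (Gna14), 1 adenylyl cyclase (Adcy6) and 3 phosphodiesterase genes (Pde6h, Pde6d, Pde8a). The 16 higher in cortex were 2 alpha (Gna12, Gnai3), 2 beta (Gnb2, Gnb4) and 3 gamma subunits (Gng2, Gng10, Gng12), 3 RGS genes (Rgs6, Rgs10, Rgs19), Grk6, Adcyap1, 3 phosphodiesterases (Pde1a, Pde3b, Pde10a) and the kinase A subunit Prkar2b. Of the 9 retina-higher genes 4 reached 4-fold at both sites, and of the 16 cortex-higher genes 7 did. All 4 of these retina-higher genes also reached 8-fold at both sites, as did Gnb4 among the cortex-higher genes. The shares of all tested probes at these folds were not counted.

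**Figure D1:**
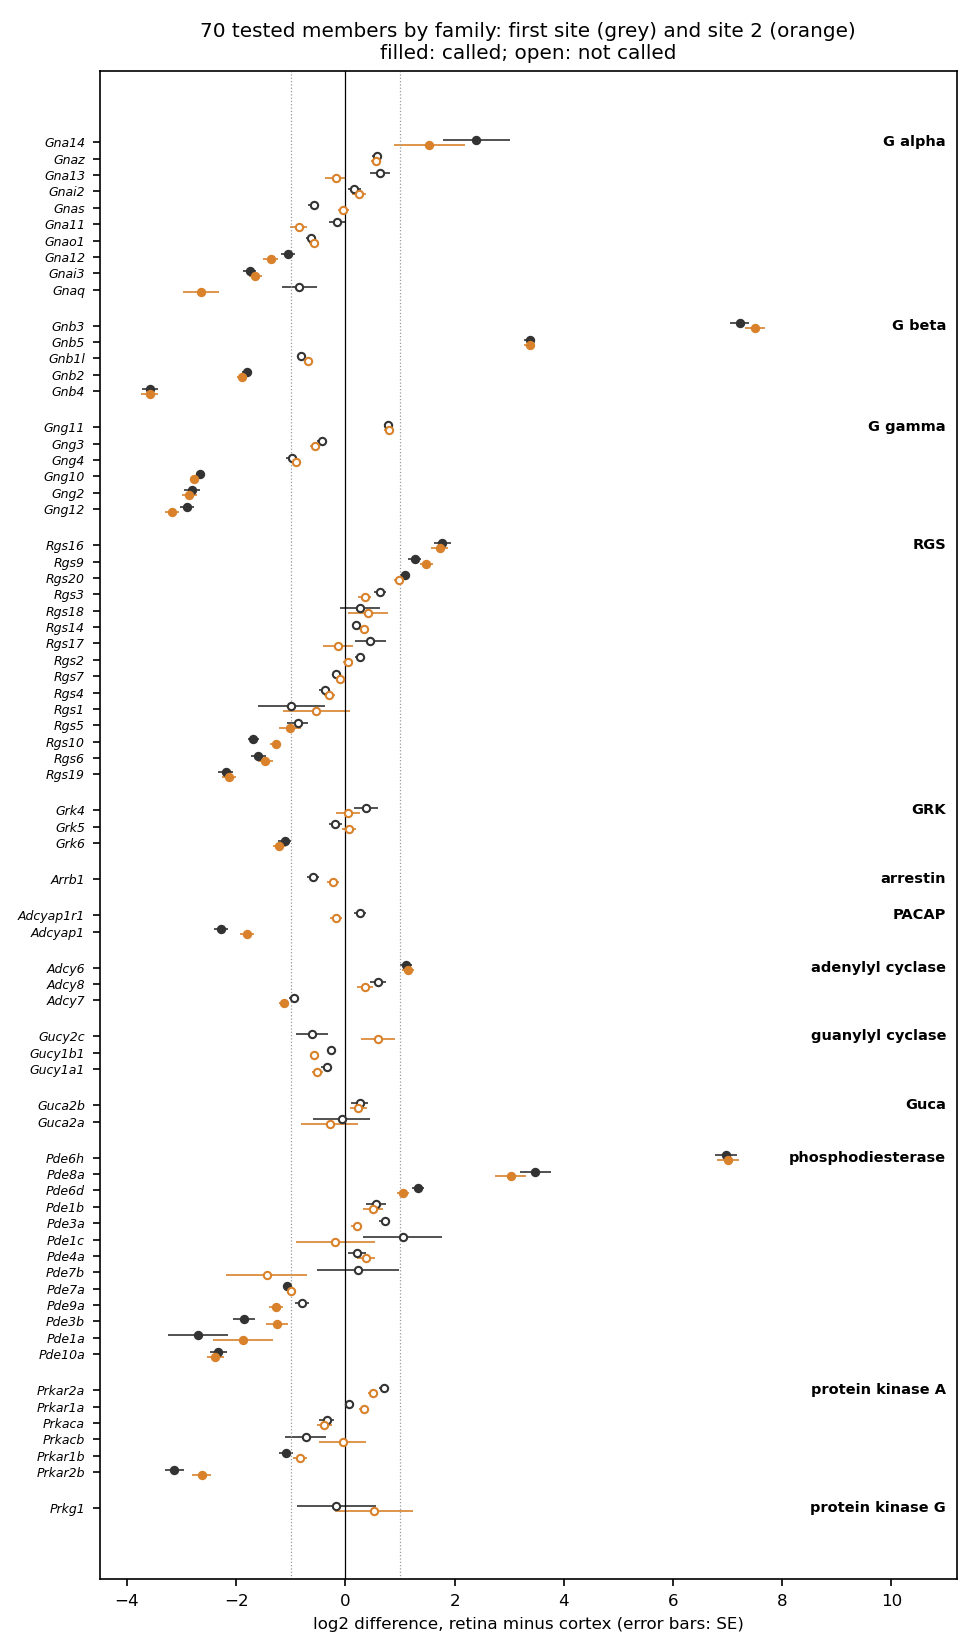
Log2 difference between retina and cortex (horizontal axis, retina minus cortex; error bars are SE) for the 70 tested genes, ordered by family, with the first site in dark grey and site 2 in orange; filled points were called and dotted lines mark 2-fold. Gnb3 and Pde6h lie near 7 at both sites, Gnb4 lies near -3.6, and most points of the 2 sites sit beside each other, with Gnaq as the gene whose 2 points are called as different.

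Promoters are shown to set the sequence before the start site beside the direction of the difference. In each direction they are the 3 genes with the largest mean difference among those called at both sites with exactly 1 RefSeq promoter, a rule set after the motif matches had been seen. Each is the 250 bases before the RefSeq start site on GRCm38.p6, read 5′ to 3′ on the gene's strand. Capitals mark CAGATG or its reverse complement CATCTG, an E-box bound by neuronal basic helix-loop-helix factors, and TAATCC or its reverse complement GGATTA, the core bound by the photoreceptor homeodomain factors CRX and OTX2.
Pde6h, chr6:136954273-136954522, plus strand: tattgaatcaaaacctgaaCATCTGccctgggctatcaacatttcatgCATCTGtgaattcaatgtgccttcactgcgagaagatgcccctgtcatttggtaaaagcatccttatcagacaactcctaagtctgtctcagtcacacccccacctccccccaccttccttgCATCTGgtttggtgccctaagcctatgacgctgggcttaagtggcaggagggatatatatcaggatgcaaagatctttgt
Gnb5, chr9:75306038-75306287, plus strand: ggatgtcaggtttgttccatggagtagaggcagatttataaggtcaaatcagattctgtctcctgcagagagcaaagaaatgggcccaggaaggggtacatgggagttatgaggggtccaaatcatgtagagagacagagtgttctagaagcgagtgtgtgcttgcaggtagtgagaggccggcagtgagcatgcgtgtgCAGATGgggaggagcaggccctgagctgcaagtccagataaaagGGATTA
Pde8a, chr7:81213015-81213264, plus strand: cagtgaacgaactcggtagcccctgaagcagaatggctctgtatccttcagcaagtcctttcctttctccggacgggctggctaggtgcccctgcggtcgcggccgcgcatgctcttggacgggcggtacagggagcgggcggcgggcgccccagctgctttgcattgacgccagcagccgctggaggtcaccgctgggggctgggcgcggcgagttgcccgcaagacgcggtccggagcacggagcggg
Gng2, chr14:19976694-19976943, minus strand: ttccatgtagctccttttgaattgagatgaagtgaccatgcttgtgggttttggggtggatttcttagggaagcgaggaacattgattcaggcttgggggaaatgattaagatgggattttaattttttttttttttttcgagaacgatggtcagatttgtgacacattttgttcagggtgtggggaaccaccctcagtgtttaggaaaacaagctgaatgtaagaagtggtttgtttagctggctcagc
Gng10, chr4:59034906-59035155, plus strand: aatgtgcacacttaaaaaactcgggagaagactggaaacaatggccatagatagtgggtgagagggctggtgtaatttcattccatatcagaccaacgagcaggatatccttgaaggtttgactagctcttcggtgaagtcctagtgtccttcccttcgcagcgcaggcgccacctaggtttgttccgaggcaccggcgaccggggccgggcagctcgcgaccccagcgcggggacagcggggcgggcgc
Gnb2, chr5:137533307-137533556, minus strand: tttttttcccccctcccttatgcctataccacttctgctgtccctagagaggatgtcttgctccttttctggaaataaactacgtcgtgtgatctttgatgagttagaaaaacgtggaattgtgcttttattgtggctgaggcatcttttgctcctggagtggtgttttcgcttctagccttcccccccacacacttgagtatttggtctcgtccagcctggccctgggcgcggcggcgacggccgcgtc

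Counted from the start site, the E-box letters begin at -231, -202 and -80 in Pde6h and at -50 in Gnb5. Gnb5 alone of the 6 holds the CRX core, at -6, apart from its E-box. The promoters of Pde8a, which is higher in retina, and of the 3 cortex-higher genes hold neither run of letters. Of the retina-higher genes not shown, Rgs9 and Gna14 hold the E-box, and Rgs16 and Pde6d hold neither motif. Of the cortex-higher genes not shown, Pde1a, Rgs19, Grk6 and Pde10a hold the E-box in 1 of their several promoters, and the first 3 of these also hold the CRX core in 1. RefSeq promoters were found for 55 of the 73 genes, 93 promoters in all. Of the 9 retina-higher genes 7 had a promoter, 1 each. Of the 16 cortex-higher genes 14 had 25 promoters between them, so a share of promoters is not a share of genes. The 4 cortex-higher genes with an E-box named above are 4 of those 14. The E-box occurred in 4 of 7 promoters of the retina-higher genes (57.1%), in 4 of 25 of the cortex-higher genes (16.0%), in 17.2% of the promoters of the 73 genes and in 14.4% of all 32851 promoters. TAATCC occurred in 1 of 7, in 3 of 25, in 7.53% and in 6.25%, in the same order. The cAMP response element TGACGTCA was found in 1.08% of the promoters of the 73 genes and in 1.55% of all, and in none of the retina-higher or cortex-higher genes' promoters. The promoters of the 73 genes had a median GC content of 59.2% and a median of 13 CpG, against 52.4% and 6 for all promoters. A match is a run of letters and no measure of binding.

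Of the 10 alpha subunits, 1 was called higher in retina and 2 higher in cortex at both sites, against 9.31% and 10.5% of all tested probes, and 6 were called at neither. Gna14, a member of the Gq class that couples receptors to phospholipase C, read 0.778, 0.750, 0.750, 0.760 and 0.685 on the first-site retina arrays and 0.141, 0.119, 0.180, 0.158 and 0.119 on the first-site cortex arrays, a difference of 2.40 (SE 0.61, limma adjusted p = 0.0024) on the log2 scale. Its site 2 readings were 0.766, 0.797, 0.754 and 0.662 on the 4 retina arrays with a value and 0.114, 0.141, 0.125, 0.188 and 2.90 on the cortex arrays, a difference of 1.54 (SE 0.65, limma adjusted p = 0.049). The groups were apart at the first site and overlapped at site 2 through cortex replicate 5 alone. Without that array the site 2 difference was 2.42, with a limma adjusted p of 1.5e-10. The call was lost in 13 of 20 settings, the reported one and the one without that array counted among the 20.

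Gnai3, an inhibitory alpha subunit that lowers adenylyl cyclase activity, read 1.06, 1.13, 0.922, 1.20 and 1.35 on the first-site retina arrays and 4.73, 3.24, 4.21, 3.87 and 3.17 on the first-site cortex arrays. At site 2 the readings were 1.78, 1.71, 1.74, 1.40 and 1.84 in retina and 5.16, 5.81, 5.56, 5.32 and 4.74 in cortex. Every cortex array lay above every retina array of its site, and the differences were -1.76 and -1.65 (SE 0.12, limma adjusted p = 1.5e-10 and 3.8e-10). Gna12 was 2.07-fold and 2.58-fold higher in cortex, close to the fold limit: its first-site difference of -1.05 became -0.96 under quantile normalization and without retina replicate 5. Gnai2, another inhibitory subunit, differed by 0.16 and 0.24. Gnao1, the abundant Go alpha subunit of neurons, was 1.56-fold and 1.49-fold higher in cortex without overlap (limma adjusted p = 3.4e-06 and 1.3e-05), below the fold limit at both sites. Gnaz, an inhibitory-class subunit of neurons, was 1.49-fold and 1.48-fold higher in retina, also below that limit.

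Gnas encodes the stimulatory alpha subunit of adenylyl cyclase and had the highest-reading probe of the alpha family. Its retina readings were 24.0, 24.6, 24.7, 29.3 and 27.3 at the first site and 46.5, 43.6, 49.6, 49.2 and 49.6 at site 2. Its cortex readings were 41.4, 35.5, 46.3, 37.7 and 34.3 and 56.7, 49.0, 53.0, 47.7 and 39.8. Cortex was higher at the first site, by 1.50-fold, and the groups overlapped at site 2, with differences of -0.58 and -0.04. A second, dimmer probe of Gnas gave the opposite sign, 0.51 at the first site and 0.31 at site 2, so the locus has no settled direction here. Gnas has several transcripts, and which of them each probe reads is not given in the sources used here.

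Gnaq, the Gq alpha subunit, was the 1 gene of the 70 whose retina-cortex difference was called as different between sites, against 0.725% of all tested probes. Its cortex readings were 0.551, 0.199, 0.414, 0.249 and 0.245 at the first site and 0.570, 0.679, 0.897, 0.823 and 2.20 at site 2. Its retina readings were 0.216, 0.151, 0.138, 0.154 and 0.215 and 0.167, 0.103, 0.208, 0.154 and 0.121. Retina stayed low at both sites while the site 2 cortex arrays all read above the highest cortex array of the first site. The difference was -0.84 (SE 0.33, limma adjusted p = 0.032) at the first site and -2.64 (limma adjusted p = 8.3e-07) at site 2, and these differed by -1.80 (SE 0.46, limma adjusted p = 0.035). That last call was lost in 11 of 30 settings, with a limma adjusted p of up to 0.068. Gna11, the other widespread Gq subunit, differed by -0.15 and -0.85, and Gna13 by 0.63 and -0.18, with the site 2 sign turned to 0.12 under quantile normalization.

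**Figure D2:**
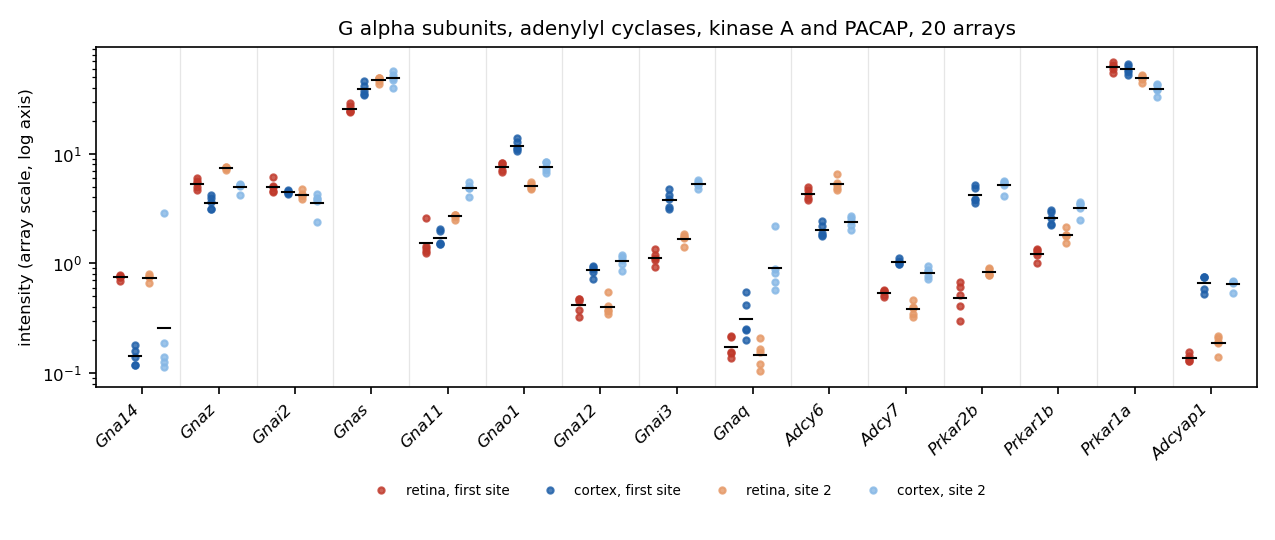
Intensity (vertical axis, array scale, log axis) of the G alpha subunits except the dim Gna13 and of 6 cyclase, kinase A and PACAP genes on the 20 arrays; points are arrays, bars are geometric means, red and orange are retina at the first site and site 2, dark and light blue are cortex. Of the alpha genes drawn, Gna14 has retina above cortex by the widest margin, with 1 site 2 cortex array at 2.90. Gnai3, Prkar2b and Adcyap1 lie higher in cortex at both sites.

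Of the 5 genes with a Gnb symbol, 2 beta subunits were called higher in retina and 2 higher in cortex at both sites. The 1 called at neither was Gnb1l, the WD-repeat protein. Over all tested probes the shares called at both sites were 9.31% and 10.5%. Gnb1, a beta subunit kept out by the rule, was higher in retina by 2.87 and 3.38. Gnb3, the beta subunit of cone transducin that ON bipolar cells also use, read 21.0, 24.4, 26.6, 24.2 and 22.1 on the first-site retina arrays and 0.114, 0.235, 0.190, 0.175 and 0.111 on the first-site cortex arrays. Site 2 gave 17.8, 20.7, 23.8, 17.2 and 18.3 in retina and 0.104, 0.110, 0.136, 0.105 and 0.0873 in cortex. The differences of 7.22 and 7.50 (SE 0.18, limma adjusted p = 5.5e-17 and 3.2e-17) are 149-fold and 181-fold, the largest of the 70 genes. The cortex readings lie near or under the 25th percentile of all values, so the size of the fold depends on how background was removed: with readings under that percentile raised to it, the site 2 difference was 6.64. The geometric mean of Gnb3 in cortex was 0.158 at the first site and 0.107 at site 2. Of the rod and cone markers summed above, Gnat1 (2.66 and 0.141), Sag (1.26 and 0.202) and Rom1 (0.835 and 0.205) were called lower in cortex at site 2. The cone markers Gnat2 (0.113 and 0.118) and Opn1mw (0.137 and 0.0871) were not, nor was Rcvrn (1.48 and 1.50). The part of these cells in the Gnb3 difference was not tested.

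Gnb5, the divergent beta subunit that pairs with RGS proteins of the Rgs9 class in place of a gamma subunit, read 47.6, 42.3, 40.6, 48.0 and 49.2 in first-site retina and 4.23, 4.82, 4.33, 4.45 and 4.15 in first-site cortex. The site 2 readings were 32.9, 32.0, 31.0, 33.8 and 32.8 in retina and 3.61, 3.11, 3.36, 3.40 and 2.35 in cortex. Every retina array was far above every cortex array, and both sites gave the same difference, 3.37 and 3.37 (SE 0.10, limma adjusted p = 4.1e-16 and 3.7e-16), or 10.4-fold at each. Its promoter, printed above, holds both motifs.

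Gnb4 and Gnb2, beta subunits that form conventional beta-gamma pairs, went the other way. Gnb4 read 0.274, 0.355, 0.392, 0.387 and 0.289 in first-site retina and 4.18, 3.59, 3.80, 4.29 and 4.14 in first-site cortex. At site 2 the readings were 0.185, 0.332, 0.271, 0.248 and 0.205 and 3.01, 3.17, 3.12, 3.21 and 2.22. Cortex was 11.9-fold and 12-fold higher (SE 0.15 on the log2 scale, limma adjusted p = 1e-13 and 9.4e-14), with no overlap. Gnb2 read 4.63, 4.84, 4.94, 4.74 and 4.44 on retina and 16.9, 17.9, 16.2, 15.6 and 15.5 on cortex arrays of the first site, and 4.93, 4.55, 4.51, 5.34 and 4.80 and 19.4, 18.1, 19.7, 19.5 and 13.5 at site 2. That is 3.48-fold and 3.71-fold higher in cortex (limma adjusted p = 2.1e-12 and 1e-12), again without overlap. Gnb1l stayed below the fold limit at -0.81 and -0.68.

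The 6 gamma subunits anchor the beta subunit to the membrane through a lipid group. Of these, 3 were called higher in cortex at both sites, 0 higher in retina by limma at either site, and 3 at neither. Over all tested probes, 10.5% were called higher in cortex and 9.31% higher in retina at both sites. With the fold limit dropped, 5 were lower in retina by limma at both sites and Gng11 was higher. In either direction, 54 of the 70 genes then passed at the first site and 49 at site 2, against 59.9% and 60.4% of all tested probes. The median of these 6 was -1.82 and -1.84, against -0.04 and -0.05 over all tested probes. Gng13, a gamma subunit kept out by the rule, went the other way and was higher in retina by 3.41 and 3.68.

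Gng12 read 0.261, 0.260, 0.287, 0.438 and 0.367 on retina and 2.49, 2.24, 2.35, 2.50 and 2.27 on cortex arrays of the first site, and 0.227, 0.190, 0.189, 0.203 and 0.169 and 1.76, 1.84, 1.95, 1.81 and 1.46 at site 2. Its differences were -2.91 and -3.17 (SE 0.13, limma adjusted p = 2.6e-13 and 7.1e-14). Gng2 read 0.302, 0.221, 0.185, 0.285 and 0.296 on retina and 2.06, 1.62, 1.78, 2.02 and 1.46 on cortex arrays of the first site, and 0.201, 0.174, 0.215, 0.175 and 0.229 and 1.37, 1.78, 1.39, 1.31 and 1.34 at site 2. The retina arrays of both genes lay well under the cortex arrays, and the Gng2 differences were -2.81 and -2.86 (SE 0.14, limma adjusted p = 1.6e-12 and 1.3e-12). Gng10 read 3.52, 3.49, 3.25, 3.47 and 3.29 on retina and 20.2, 21.0, 20.1, 23.1 and 23.1 on cortex arrays of the first site, and 2.41, 2.07, 2.37, 2.17 and 2.36 and 15.4, 16.1, 15.1, 17.2 and 14.0 at site 2. It was 6.30-fold and 6.85-fold higher in cortex (SE 0.07 on the log2 scale, limma adjusted p = 1.1e-16 and 5.2e-17), without overlap.

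The other 3 gamma subunits differed by less than 2-fold. Gng3, a neuronal gamma subunit and the highest-reading probe of its family, read 36.1, 37.0, 37.5, 36.4 and 35.3 in first-site retina and 42.9, 42.7, 50.8, 56.2 and 53.7 in first-site cortex. At site 2 it read 30.7, 35.9, 34.3, 33.4 and 32.5 and 51.2, 48.8, 47.4, 57.7 and 42.7. Its arrays did not overlap, and it was 1.34-fold and 1.48-fold higher in cortex. Gng4 came close to the limit at 1.98-fold and 1.88-fold higher in cortex. Gng11, a gamma subunit with a farnesyl anchor like that of rod transducin, was 1.71-fold and 1.74-fold higher in retina.

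**Figure D3:**
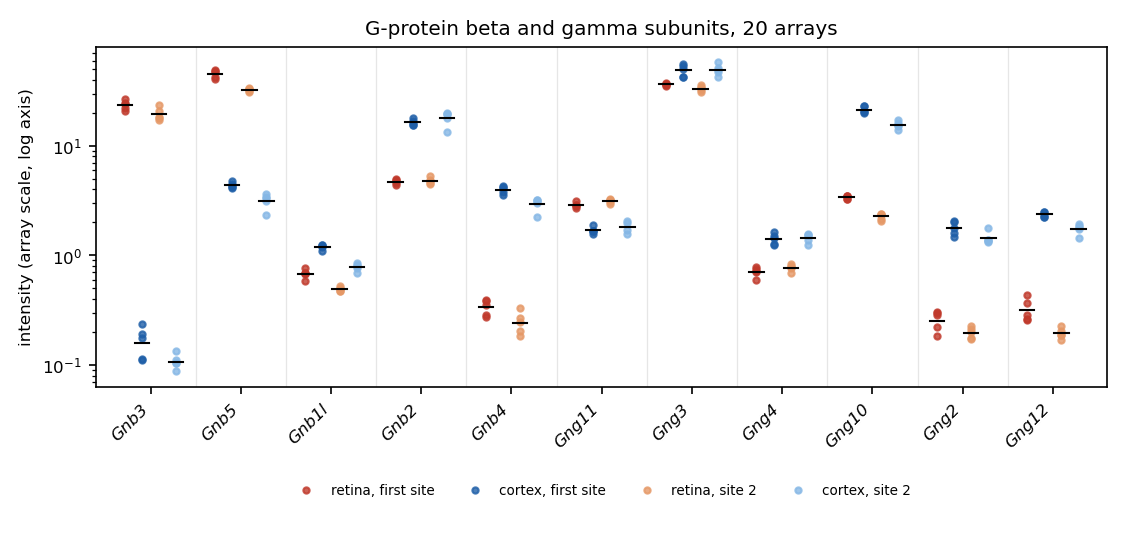
Intensity (vertical axis, array scale, log axis) of the 5 Gnb genes, Gnb1l included, and the 6 gamma genes on the 20 arrays. Points are arrays and bars are geometric means. Red and orange are retina at the first site and site 2, dark and light blue are cortex. Gnb3 and Gnb5 lie higher in retina, Gnb2, Gnb4, Gng2, Gng10 and Gng12 lie higher in cortex, and Gng3 reads 30.7 to 57.7 on every array.

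Of the 15 RGS genes, 2 were called higher in retina and 3 higher in cortex at both sites, beside the 9.31% and 10.5% of all tested probes, and 8 at neither. Rgs9, the photoreceptor and striatal RGS protein that pairs with Gnb5, read 14.3, 15, 15.5, 13.8 and 14.0 on retina and 5.47, 6.03, 5.97, 5.91 and 6.78 on cortex arrays of the first site. Its site 2 readings were 10.8, 9.36, 10.9, 12.1 and 9.89 in retina and 4.79, 4.20, 4.14, 3.34 and 2.80 in cortex. Retina was higher on every array, by 1.27 and 1.48 (SE 0.12, limma adjusted p = 1.2e-08 and 1.3e-09), which is 2.41-fold and 2.79-fold where its partner Gnb5 differed by 10.4-fold. Of the other striatal markers measured, Drd2 was higher in retina by 2.47 and 2.79, while Penk (-0.33 and 0.04) and Tac1 (0.04 and -0.05) were not called; the sum of these 3 was 11.7 to 13.2 in first-site cortex and 7.65 to 9.58 in site 2 cortex, and their part in the Rgs9 reading was not tested.

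Rgs16, an RGS protein for Gi and Gq whose gene is read in thalamus as well as retina, read 0.730, 0.903, 0.866, 1.05 and 1.03 on retina and 0.328, 0.203, 0.307, 0.296 and 0.216 on cortex arrays of the first site. Site 2 gave 0.899, 0.868, 0.931, 0.714 and 0.995 and 0.311, 0.320, 0.292, 0.212 and 0.210. The groups did not overlap, with differences of 1.77 and 1.73 (SE 0.16, limma adjusted p = 9.6e-09 and 1.5e-08). Rgs16 is itself on the list of 7 measured thalamus and midline markers, and was the 1 called higher in retina. Of the others, 3 (Tcf7l2, Avp and Nts) were higher in cortex, and Gbx2, Lef1 and Cd9 were called at neither site. The part of thalamus in the Rgs16 reading was not tested. Rgs20, selective for Gnaz, read 1.29, 1.41, 1.41, 1.34 and 1.36 on retina and 0.668, 0.611, 0.640, 0.698 and 0.597 on cortex arrays of the first site, and 1.49, 1.26, 1.46, 1.53 and 1.34 and 0.785, 0.754, 0.764, 0.780 and 0.541 at site 2. It passed 2-fold at the first site only, with 1.09 and 0.97 (SE 0.09, limma adjusted p = 4.6e-09 and 2.2e-08), and the difference between sites of -0.11 had a limma adjusted p of 0.65.

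Among the cortex-higher RGS genes, Rgs19, an RGS protein for Gi subunits, read 0.393, 0.459, 0.570, 0.504 and 0.464 on retina and 2.19, 1.86, 2.16, 2.33 and 2.34 on cortex arrays of the first site. The site 2 readings were 0.322, 0.302, 0.466, 0.362 and 0.332 and 1.61, 1.69, 1.60, 1.82 and 1.12. No array overlapped, and cortex was higher by 4.57-fold and 4.38-fold (SE 0.14 on the log2 scale, limma adjusted p = 4.3e-11 and 6.9e-11). Rgs10, a small RGS protein found in neurons and microglia, differed by -1.69 and -1.28, from first-site geometric means of 0.947 for retina and 3.05 for cortex. Rgs6, of the same Gnb5-binding class as Rgs9, differed by -1.60 and -1.47. Rgs7, also of that class, differed by only -0.18 and -0.10. Of the measured Gnb5 partners, Rgs9 was thus called higher in retina, Rgs6 higher in cortex, and Rgs7 at neither site.

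Rgs5, a marker of pericytes on small vessels, read 0.569, 0.432, 0.261, 0.431 and 0.408 on retina and 0.698, 0.730, 0.743, 0.822 and 0.758 on cortex arrays of the first site, and 0.430, 0.673, 0.300, 0.347 and 0.327 and 0.713, 0.792, 0.951, 0.902 and 0.674 at site 2. Its differences of -0.88 and -1.01 lie on both sides of the fold limit, and the site 2 call was lost in 7 of 21 settings. Of the blood and vessel markers beside it, the hemoglobin gene Hba-a1 was lower in retina by -1.86 and -2.41, called at both sites. Pecam1 differed by -1.25, called, and -0.67, Cdh5 by -0.52 and -0.97, and Kdr, which retinal neurons and glia also express, by 2.16 and 2.05. The part of these markers in the Rgs5 reading was not tested. Rgs14, a scaffold for Gi subunits and the highest-reading RGS probe, read 24.2, 21.3, 21.0, 20.1 and 20.5 on retina and 18.6, 19.3, 19.3, 19.8 and 16.7 on cortex arrays of the first site. At site 2 it read 22.3, 21.8, 23.0, 23.9 and 25.9 and 19.9, 19.2, 19.4, 18.5 and 15.8. Retina lay above cortex on every array, yet by no more than 1.14-fold and 1.26-fold. Rgs2, an RGS protein for Gq, differed by 0.27 and 0.05, Rgs3 by 0.63 and 0.35, and Rgs4 by -0.38 and -0.29. A second, dimmer probe of Rgs3 differed by 0.05 at the first site, where its arrays overlapped, and by 0.35 at site 2. Rgs1, Rgs17 and Rgs18 had geometric means of 0.0219 to 0.0706 in every group, near the 5th percentile of all values, and none of the 3 was called.

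**Figure D4:**
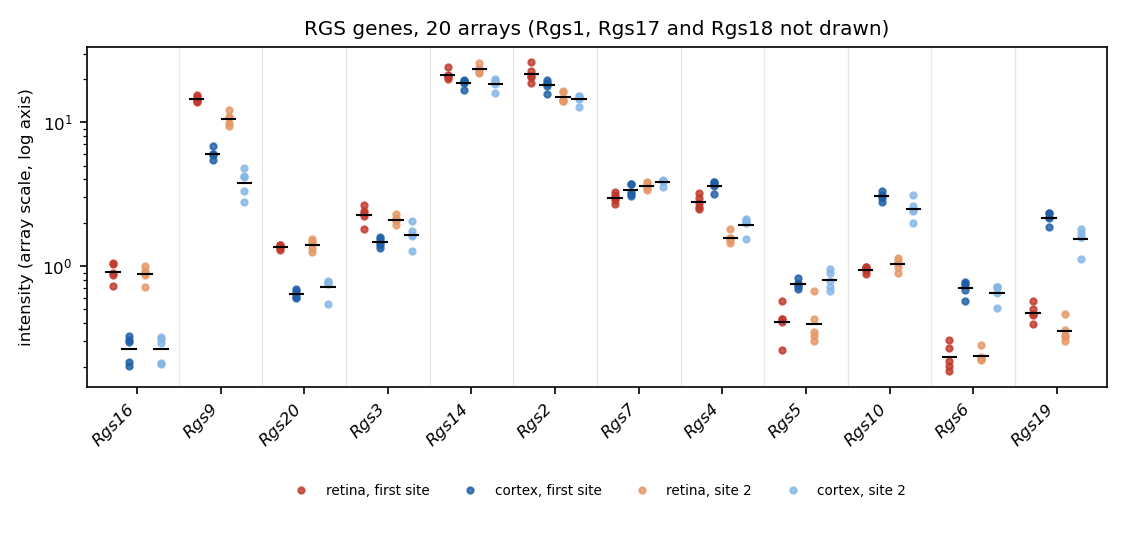
Intensity (vertical axis, array scale, log axis) of 12 RGS genes on the 20 arrays, without the dim Rgs1, Rgs17 and Rgs18; points are arrays, bars are geometric means, red and orange are retina at the first site and site 2, dark and light blue are cortex. Rgs16, Rgs9 and Rgs20 lie higher in retina, Rgs10, Rgs6 and Rgs19 lie higher in cortex, and Rgs14, Rgs2 and Rgs7 differ between the pools by at most 1.26-fold.

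Of the 3 receptor kinases and the 1 arrestin, limma called 1 kinase higher in cortex at both sites and none of the 4 higher in retina, against 10.5% and 9.31% of all tested probes. Grk6, a kinase that phosphorylates active receptors, was 2.16-fold and 2.31-fold higher in cortex (log2 differences -1.11 and -1.21, limma adjusted p = 1.3e-07 and 4.1e-08), and its first-site difference was -0.92 under quantile normalization. Grk5 read 1.65, 1.82, 1.98, 1.95 and 1.69 on retina and 2.01, 2.33, 1.95, 1.90 and 2.18 on cortex arrays of the first site, and 1.52, 1.38, 1.51 and 1.61 on the 4 retina arrays with a value and 1.82, 1.39, 1.60, 1.53 and 1.02 on the cortex arrays at site 2. Its arrays overlapped at both sites, and it differed by -0.19 and 0.06. Grk4 differed by 0.37 and 0.04. Arrb1, the beta-arrestin that uncouples phosphorylated receptors, read 3.12, 3.58, 3.82, 3.27 and 3.10 on retina and 5.08, 6.35, 4.27, 4.30 and 5.57 on cortex arrays of the first site, and 3.38, 2.83, 2.86, 3.37 and 2.95 and 4.02, 3.85, 3.62, 3.54 and 3.0 at site 2. It was lower in retina without overlap at the first site only, by -0.59, and by -0.23 at site 2, where the arrays overlapped.

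PACAP, encoded by Adcyap1, is a neuropeptide whose receptor stimulates adenylyl cyclase. Adcyap1 read 0.156, 0.133, 0.129, 0.128 and 0.143 on retina and 0.747, 0.527, 0.748, 0.755 and 0.585 on cortex arrays of the first site, and 0.193, 0.139, 0.216, 0.208 and 0.189 and 0.682, 0.697, 0.673, 0.669 and 0.538 at site 2. Cortex was higher on every array, by 4.84-fold and 3.47-fold (log2 differences -2.27 and -1.80, SE 0.13, limma adjusted p = 7.4e-12 and 2.6e-10). The receptor gene Adcyap1r1 read 2.87, 2.04, 2.03, 2.06 and 1.97 on retina and 1.80, 1.94, 1.74, 1.70 and 1.87 on cortex arrays of the first site, and 1.25, 1.35, 1.33, 1.44 and 1.54 and 1.47, 1.83, 1.74, 1.55 and 1.26 at site 2. It differed by 0.26 and -0.18. The peptide thus differed between the pools while its receptor differed by at most 1.20-fold at either site.

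Of the 4 adenylyl cyclases, the enzymes that make cyclic AMP, 3 could be tested. Adcy6, which calcium inhibits, read 4.68, 4.34, 4.98, 3.81 and 3.99 on retina and 1.78, 2.43, 1.88, 1.80 and 2.21 on cortex arrays of the first site, and 6.53, 4.85, 5.22, 5.45 and 4.64 and 2.68, 2.23, 2.46, 2.62 and 2.03 at site 2. Retina was higher on every array, by 2.16-fold and 2.22-fold (log2 differences 1.11 and 1.15, SE 0.11, limma adjusted p = 6.8e-08 and 4.5e-08). Adcy7 went towards cortex: it read 0.569, 0.493, 0.515, 0.556 and 0.565 on retina and 0.981, 1.05, 0.990, 1.04 and 1.12 on cortex arrays of the first site, and 0.460, 0.344, 0.325, 0.390 and 0.397 and 0.851, 0.938, 0.866, 0.770 and 0.719 at site 2. Its differences of -0.94 and -1.12 (limma adjusted p = 2.9e-08 and 2.5e-09) put it past 2-fold at site 2 only. Adcy8, which calcium and calmodulin stimulate, differed by 0.60 and 0.37. Adcy9 had a value on 1 of 5 cortex arrays at site 2 and was fitted at the first site alone, where retina was 2.11-fold higher with a limma adjusted p of 0.0074 although the arrays overlapped.

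The soluble guanylyl cyclase, the receptor for nitric oxide, is a pair of Gucy1a1 and Gucy1b1, and both were slightly lower in retina. Gucy1b1 read 8.57, 7.91, 8.38, 8.10 and 8.41 on retina and 10.3, 9.22, 9.91, 9.71 and 10.6 on cortex arrays of the first site, and 6.05, 5.90, 6.39, 5.72 and 5.40 and 9.14, 8.66, 9.08, 8.57 and 8.16 at site 2. Its arrays did not overlap, and the differences were -0.26 and -0.57, beside -0.34 and -0.52 for Gucy1a1. Gucy2c, Guca2a and Guca2b were dim and called at neither site. Guca2b, the brighter peptide gene, read 0.368, 0.302, 0.480, 0.276 and 0.310 on retina and 0.237, 0.234, 0.297, 0.320 and 0.353 on cortex arrays of the first site, and 0.290, 0.280, 0.294, 0.347 and 0.394 and 0.289, 0.283, 0.280, 0.298 and 0.212 at site 2. Its arrays overlapped, and it differed by 0.26 and 0.23.

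Of the 14 phosphodiesterase genes, whose enzymes degrade cyclic nucleotides, 13 could be tested. At both sites 3 were called higher in retina and 3 higher in cortex, against 9.31% and 10.5% of all tested probes. Another 5 were called at neither. Pde6h, the inhibitory gamma subunit of the cone enzyme, read 23.0, 22.4, 23.1, 23.1 and 24.0 on retina and 0.133, 0.220, 0.299, 0.152 and 0.161 on cortex arrays of the first site. Its site 2 readings were 18.1, 17.9, 18.0, 18.0 and 22.4 in retina and 0.247, 0.141, 0.117, 0.154 and 0.106 in cortex. The differences were 6.97 and 7.01 (SE 0.21, limma adjusted p = 7.7e-16 and 6.9e-16), or 125-fold and 129-fold, against cortex readings in the dimmest part of the scale.

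Pde6c, the catalytic subunit of the same cone enzyme, read 11.3, 11.2, 9.88, 10.2 and 9.54 in first-site retina and 0.0926, 0.102, 0.147, 0.152 and 0.0987 in first-site cortex. It was blank on all 5 retina arrays of site 2 and read 0.143, 0.104, 0.119 and 0.0999 on the 4 cortex arrays with a value there. So the first site alone gives a comparison, 89.8-fold higher in retina in a fit of the first-site groups (log2 difference 6.49, SE 0.15, limma adjusted p = 9.5e-11). All its cortex readings lay below the 25th percentile of all values, so the size of that fold depends on how background was removed. The site 2 blanks fell on the arrays of the tissue with the high reading, and the table gives no reason for them.

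Pde6d is a chaperone for prenylated proteins, transducin and the rod enzyme among them, and every tissue uses it. It read 18.4, 14.3, 14.0, 13.1 and 13.6 on retina and 6.0, 5.36, 5.42, 6.66 and 5.73 on cortex arrays of the first site, and 13.8, 13.0, 15.3, 11.7 and 13.2 and 6.57, 7.12, 7.18, 6.75 and 4.79 at site 2. Retina was higher on every array, by 2.51-fold and 2.08-fold (limma adjusted p = 6.1e-09 and 1.6e-07). The site 2 difference of 1.06 fell under the fold limit without cortex replicate 5, at 0.95, and under quantile normalization, at 0.99.

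Pde8a, an enzyme specific for cyclic AMP, read 3.0, 2.77, 3.02, 2.97 and 3.11 on retina and 0.174, 0.375, 0.212, 0.271 and 0.364 on cortex arrays of the first site, and 4.35, 3.55, 3.66, 4.01 and 3.31 and 0.334, 0.364, 0.368, 0.373 and 1.26 at site 2. Retina was 11.1-fold and 8.14-fold higher (log2 differences 3.48 and 3.02, SE 0.29, limma adjusted p = 3e-09 and 2.3e-08). Cortex replicate 5 of site 2 gave the one reading above 1 among the cortex arrays, and its removal moved the site 2 difference to 3.39.

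The 3 phosphodiesterases called higher in cortex at both sites act on both nucleotides. Pde10a, best known from striatal medium spiny neurons, read 0.106, 0.0863, 0.0742, 0.103 and 0.0703 on retina and 0.449, 0.515, 0.464, 0.379 and 0.390 on cortex arrays of the first site, and 0.112, 0.0744, 0.115, 0.140 and 0.0828 and 0.517, 0.520, 0.555, 0.489 and 0.596 at site 2. Its differences were -2.33 and -2.39 (SE 0.16, limma adjusted p = 1.3e-10 and 9.4e-11), and -1.17 and -1.46 with dim readings raised to the 25th percentile. The striatal marker Drd2 was higher in retina, as given above with Penk and Tac1; their part in the Pde10a reading was not tested.

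Pde1a, which calmodulin activates, read 0.131, 0.122, 0.101, 0.102 and 0.0888 on retina and 0.776, 0.626, 0.655, 0.707 and 0.745 on cortex arrays of the first site, and 0.0803, 1.70, 0.0905, 0.187 and 0.123 and 0.668, 0.737, 0.683, 0.921 and 0.627 at site 2. Retina replicate 2 of site 2 lay above every cortex array while the other 4 lay below all of them. The differences were -2.70 and -1.88 (SE 0.55, limma adjusted p = 0.00028 and 0.0059), and the site 2 value was -2.66 without that array. With dim readings raised to the 25th percentile, the values were -1.85 and -1.26. Pde3b, which cGMP inhibits, read 0.0538, 0.0683, 0.0959, 0.139 and 0.0956 on retina and 0.442, 0.318, 0.299, 0.219 and 0.323 on cortex arrays of the first site, and 0.192, 0.205, 0.182, 0.171 and 0.216 and 0.502, 0.458, 0.519, 0.446 and 0.387 at site 2. Its differences were -1.86 and -1.26 (limma adjusted p = 1.5e-07 and 2.4e-05), and the first-site call was lost, at -0.69, with dim readings raised.

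Pde7a and Pde9a passed the fold limit at 1 site each. Pde7a, specific for cyclic AMP, read 1.49, 1.41, 1.49, 1.41 and 1.28 on retina and 2.81, 3.34, 2.85, 2.77 and 3.08 on cortex arrays of the first site, and 1.94, 1.69, 1.73, 1.94 and 1.73 and 3.88, 3.47, 3.83, 3.27 and 3.51 at site 2. It differed by -1.07 and -0.99 (SE 0.07, limma adjusted p = 1.7e-10 and 5.3e-10). Pde9a, specific for cyclic GMP, read 0.546, 0.480, 0.394, 0.489 and 0.501 on retina and 0.921, 0.769, 0.789, 0.824 and 0.855 on cortex arrays of the first site, and 0.444, 0.370, 0.309, 0.333 and 0.399 and 0.820, 1.07, 1.09, 0.864 and 0.668 at site 2. It differed by -0.79 and -1.27 (limma adjusted p = 2.6e-05 and 5.7e-08). Both were lower in retina on every array of both sites. Pde1b (0.56 and 0.50), Pde3a (0.72 and 0.21) and Pde4a (0.21 and 0.37) were not called. Pde1c and Pde7b read at most 0.170 on 19 arrays and 1.68 and 4.53 on replicate 5 of site 2 cortex, and neither was called between retina and cortex.

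**Figure D5:**
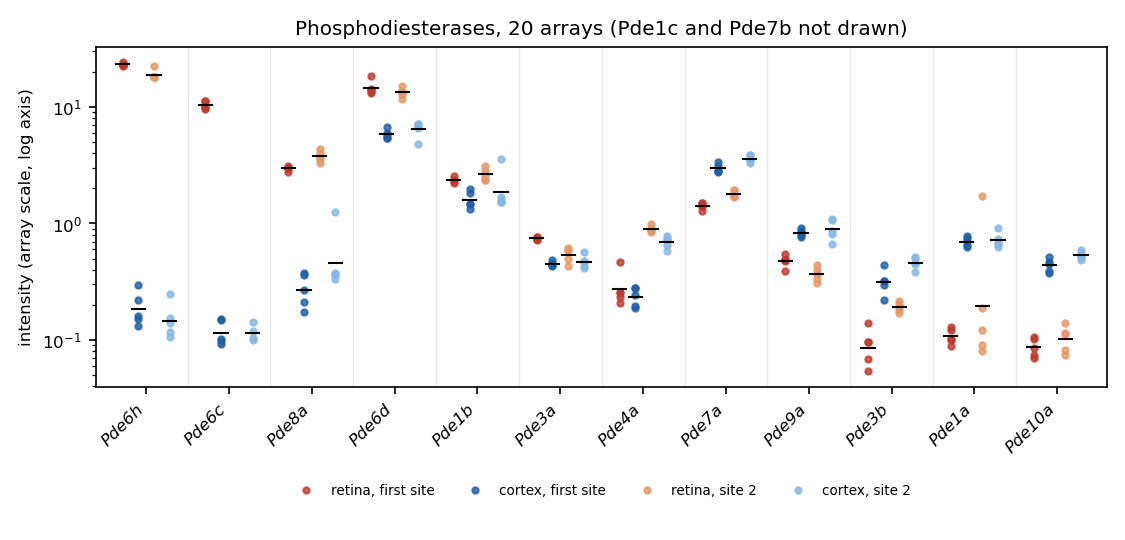
Intensity (vertical axis, array scale, log axis) of 12 phosphodiesterase genes on the 20 arrays, without the dim Pde1c and Pde7b; points are arrays, bars are geometric means, red and orange are retina at the first site and site 2, dark and light blue are cortex. Pde6h, Pde6c and Pde8a lie far higher in retina, Pde6c has no site 2 retina reading, and 1 array each of Pde8a (1.26) and Pde1a (1.70) lies apart from its group.

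Protein kinase A holds its catalytic subunits inactive with regulatory subunits until cyclic AMP binds. Prkar2b, the neuronal regulatory subunit that anchors the kinase to membranes and the cytoskeleton, read 0.295, 0.405, 0.517, 0.608 and 0.677 on retina and 5.22, 3.91, 4.88, 3.79 and 3.53 on cortex arrays of the first site, and 0.790, 0.786, 0.901, 0.808 and 0.880 and 5.40, 5.48, 5.70, 5.23 and 4.11 at site 2. Cortex was 8.79-fold and 6.19-fold higher without overlap (log2 differences -3.14 and -2.63, SE 0.18, limma adjusted p = 1e-11 and 1.5e-10). Prkar1b, a neuronal subunit of the other type, read 1.0, 1.33, 1.19, 1.28 and 1.36 on retina and 3.09, 2.22, 2.92, 2.61 and 2.29 on cortex arrays of the first site, and 2.14, 1.82, 1.80, 1.54 and 1.83 and 3.61, 3.49, 3.49, 3.19 and 2.50 at site 2. It differed by -1.09 and -0.83 (limma adjusted p = 2.3e-07 and 7.6e-06), past the fold limit at the first site only.

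The widespread regulatory subunits did not follow. Prkar1a, the highest-reading of all 73 genes' probes, read 68.4, 55.0, 59.1, 63.9 and 64.8 on retina and 52.4, 58.5, 55.8, 65.7 and 63.3 on cortex arrays of the first site, and 48.2, 44.7, 52.9, 49.1 and 51.2 and 43.2, 39.4, 33.2, 42.1 and 38.2 at site 2. Its arrays overlapped at the first site and retina was 1.26-fold higher at site 2. In retina Prkar2a exceeded cortex 1.63-fold and 1.42-fold, the direction opposite to Prkar2b. The catalytic subunits Prkaca (-0.34 and -0.39) and Prkacb (-0.73 and -0.05) were not called, and Prkacb had 3 readings in site 2 cortex, 1.58, 0.262 and 2.01. The cGMP-dependent kinase Prkg1 read 0.0499, 0.0499, 0.0260, 0.0626 and 0.0756 in first-site retina and 0.0409, 0.0568, 0.0748, 0.0407 and 0.0772 in first-site cortex, and 0.120, 1.44, 0.0231, 0.0854 and 0.0479 and 0.0584, 0.0835, 0.0879, 0.111 and 0.0569 at site 2. Its arrays overlapped at both sites, retina replicate 2 of site 2 read above all others, and the differences were -0.17 and 0.52. Prkag1 of the AMP-activated kinase read 6.11, 6.99, 6.53, 6.39 and 5.66 in first-site retina and 3.04, 3.01, 3.19, 3.09 and 2.86 in first-site cortex, a 2.08-fold difference in a fit of the first-site groups (limma adjusted p = 1.8e-07). At site 2 Prkag1 had 2 retina values, 2.77 and 2.44, and 4 cortex values, 1.32, 1.43, 1.56 and 0.979.

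Of the 62 other genes listed for these pathways, 34 were measured, and limma called 7 higher in retina and 3 higher in cortex at the first site, and 5 and 3 at site 2, against 11.9% and 13.0% of all tested probes at the first site and 11.1% and 13.5% at site 2. The largest differences among them were in regulators of Gi and Go that are no receptors: Pcp2, a bipolar cell protein that binds alpha subunits, at 5.46 and 6.0, and Gpsm2, a Gi-binding scaffold, at 4.32 and 4.52. Of the 7 measured kinase A anchors, Akap10 was called at site 2 (0.67 and 1.22) and 6 at neither site. The kinase A inhibitor Pkia was 6.69-fold and 7.0-fold higher in cortex, whereas Pkib differed by 1.09 and 0.54. Of the 7 measured cAMP-responsive transcription factors and coactivators, Atf1 was higher in retina at both sites (1.08 and 1.29) and Crem passed the limit at the first site (1.01 and 1.00). Cngb3, a subunit of the cone channel that cGMP opens, was higher in retina (2.92 and 1.89), and the pacemaker channel Hcn2 was lower (-1.16 and -1.51). The Cngb3 difference was called as different between sites (-1.03, limma adjusted p = 0.041). Its cortex geometric means were dim, 0.193 at the first site and 0.425 at site 2. Plcb1, a phospholipase that Gq activates, was lower in retina (-1.84 and -2.11), while the other measured Gq effectors, Plcb3 (0.18 and 0.00) and Plcb4 (0.50 and 0.18), were not called. The 9 symbol-pattern genes that were kept out had 8 called higher in retina and 0 higher in cortex by limma at each site.

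Retina and cortex arrays did not overlap for 50 of the 70 genes at the first site, 20 with retina higher and 30 with cortex higher, against 53.3% of all tested probes (26.2% and 27.1%). At site 2 they did not overlap for 43 genes, 15 and 28, against 48.2% (24.0% and 24.3%). All 28 genes called at the first site were among the 50, and 27 of the 29 called at site 2 were among the 43; the exceptions were Gna14 and Pde1a, each through 1 array.

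Between sites the same pool gave close readings for most of the 70 genes. Site 2 differed from the first site for 2 genes in retina, Pde3b (1.16) and Pde4a (1.72), both higher at site 2, against 6.24% of all tested probes (4.79% higher and 1.45% lower). In cortex 6 differed, against 7.21% (5.29% higher and 1.92% lower): Gnaq (1.56), Gna11 (1.52), Gna13 (1.28), Pde7b (2.23) and Pde4a (1.56) were higher at site 2 and Prkacb (-1.63) was lower. Pde4a, an enzyme specific for cyclic AMP, moved by a like amount in both pools, from geometric means of 0.272 and 0.235 to 0.897 and 0.693, so its retina-cortex difference stayed at 0.21 and 0.37. The Pde7b change was 1.18 without cortex replicate 5, where it read 4.53 beside 0.0885 to 0.170 on the rest of its group. With the fold limit dropped, 32 genes differed between sites in retina, 34 in cortex and 3 in the retina-cortex difference, against 46.7%, 46.8% and 3.98% of all tested probes. The Pde3b change in retina, between dim readings, was 0.05 with readings under the 25th percentile raised to it, and the Gna13 change in cortex was 0.23.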

How the data were processed

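The deposited table holds linear intensities of 10500 probes on the 20 arrays. Labelling followed the CodeLink assay, per the labels' protocols. Scanner software, background correction and scaling: not given in the sources used here. Array medians of the deposited intensities were 0.927 to 0.963, 143 values were at or below 0 and 2080 were blank (22 to 39 per first-site array, 152 to 217 per site 2 array). No detection flags were used. The number of arrays limits the precision.

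Probes were named from the platform annotation. A gene with several probes (Gnas and Rgs3 here) was read from its probe of highest mean log2 intensity over the 20 arrays. All 73 Entrez identifiers were found in RefSeq (GRCm38.p6). The members and lists were chosen with earlier results of these data known.

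Values at or below 0 were treated as missing, and probes with at least 3 values in each group were tested: 10339 were, 161 were not. With limma 3.58.1 in R 4.3.3, 1 mean per group was fitted to log2 intensity over the 20 arrays (lmFit, eBayes, 16 residual and 2.16 prior degrees of freedom), with 2-sided p-values adjusted by Benjamini-Hochberg. The fit was tested on simulated data. Full values are given for the genes with the largest differences called at both sites (9 towards retina, 12 towards cortex), for any gene called as different between sites, for the highest-reading probe of each family, and for genes past the p limit at both sites but past 2-fold at 1. Alternatives were other normalizations, floors and probe filters, a replicate block, and leaving out each array. Python 3.11.15, numpy 2.4.6, pandas 2.3.3 and matplotlib 3.10.9 made tables and plots.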

Additional observations from a re-analysis of the deposited data

Results flagged for a closer look

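In 288 groups of 4 or 5 arrays, over all 73 genes, 37 single readings lay far from the rest of their group by Dixon's criterion, which chance alone meets in about 1 group in 20. Of these, 21 came from replicate 5 of cortex at site 2. On that array Adcyap1 (0.538), Gnai2 (2.41), Gnaz (4.20), Gnb2 (13.5), Gnb4 (2.22), Grk4 (0.124), Guca2b (0.212), Gucy1a1 (3.597), Pde6d (4.79), Prkar2b (4.11), Rgs19 (1.12), Rgs2 (12.7), Rgs20 (0.541), Rgs4 (1.53), Rgs6 (0.508) and Rgs7 (3.56) were lowest. Gna14 (2.90), Pde1b (3.56), Pde1c (1.68), Pde7b (4.53) and Pde8a (1.26) were highest there, against nearest readings of 0.188, 1.70, 0.0668, 0.170 and 0.373.

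Replicate 1 of first-site retina gave the highest reading of its group for Adcyap1r1 (2.87), Gna11 (2.57), Pde4a (0.464) and Pde6d (18.4). Replicate 5 of first-site retina was lowest for Gna14 (0.685) and replicate 4 for Rgs1 (0.00209). In first-site cortex, replicate 4 was highest for Pde7b (0.0802) and replicate 2 lowest for Gucy2c (0.0272). In site 2 retina, replicate 2 was highest for Pde1a (1.70, against a nearest reading of 0.187) and Guca2a (2.29, against 0.257) and lowest for Pde7b (0.0583). There replicate 4 was lowest for Gnai3 (1.40) and Prkaca (1.43) and highest for Rgs6 (0.281), and replicate 5 was highest for Pde6h (22.4). In site 2 cortex, replicate 2 was highest for Gng2 (1.78).

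The retina-cortex difference of Gnaq was larger at site 2 by -1.80 on the log2 scale, with a limma adjusted p of 0.035 for the difference itself.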

How the results depend on the processing

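Of 66 called differences of single genes, 55 kept their direction and their call in every setting in which they could be fitted, and 11 lost the call in at least 1. With no fold limit the counts were 21 and 33 of 70 first-site genes towards retina and cortex, 18 and 31 at site 2, 47 at both sites, 3 different between sites, 32 in retina between sites and 34 in cortex between sites. Among the 45 genes with bright readings, 7 were higher in retina and 11 higher in cortex at site 2. By limma 0 of them differed between sites in their retina-cortex difference, and the counts between sites were 0 in retina and 2 in cortex. Over the 6025 bright probes tested, 1767 were called at site 2 in either direction, 48 between sites in the difference, 262 in retina and 329 in cortex. A floor at the 25th percentile left 1 gene in retina between sites, and 312 of all 10339 probes in place of 645. Leaving out each array in turn gave 10 to 11 genes higher in retina and 17 to 20 in cortex for the first site, 8 to 9 and 19 to 21 for site 2, 23 to 26 at both, 0 to 1 different between sites, 2 to 4 in retina between sites and 5 to 7 in cortex.

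Replicate numbers did not pair the arrays: same-numbered deviations correlated at -0.084 to 0.063 over 20 pairs, 0 of them above 0.1. With a replicate block the count of genes different between sites was 0, since the Gnaq difference of -1.80 had a limma adjusted p of 0.052.

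Signs were followed only for the tested genes that were called in any comparison or chosen for full values. Among those genes signs turned for 5, none of them called between retina and cortex at that site. Gna13 at site 2 was 0.12 under quantile normalization. Gnas was 0.51 and 0.31 on its lower probe, and at site 2 ran from -0.1123 to 0.0152 when single arrays were left out, turning without cortex replicate 1. In the same way Grk5 at site 2 ran from -0.0675 to 0.1425, turning without cortex replicate 5. Prkacb at site 2 ran from -0.0804 to 0.0014, turning without retina replicate 4, and was 0.051 under quantile normalization. Prkg1 ran from -0.3166 to 0.0678 on first-site arrays, turning without retina replicate 3, and from -0.4066 to 1.0843 on site 2 arrays, turning without retina replicate 2. The cause was not tested. No detection flag separates dim readings from background.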
